A study of Homo sapiens with 12 samples.

Results

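HT29 cells, a line from a human colorectal adenocarcinoma, were treated in growth medium for 24 h with a water extract of Aconitum carmichaeli Debeaux (ACD) at 500 µg/mL, the high dose, or with vehicle alone. The vehicle added to the medium was PBS containing 2% DMSO, the solvent of the extract. The comparison described here takes the 3 high-dose libraries and the 3 vehicle libraries, 6 of the 12 RNA libraries of HT29 cells, and all genes that passed a filter on low counts, 15374 of the 60675 gene IDs in the table. The other 6 libraries, from cells with 100 or 20 µg/mL of the extract, entered the fit to help estimate the spread, and the 100 µg/mL (medium-dose) libraries were also compared with the high dose for named genes. By the study's methods, a viability assay showed no cytotoxicity at the high dose. All libraries come from 1 cell line, and the labels do not say whether the 3 libraries of a group came from separate cultures, so the p-values measure the spread between these samples, which may be technical. Titles and treatment field name ACD, whereas a longer note kept with each library is about a preparation of Poria cocos, a fungus, and the titles were followed here.

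ACD contains aconitine-type alkaloids, and aconitine acts on voltage-gated sodium channels of excitable cells, although aconitine itself was not detected in the extract by the study's chemical analysis. A crude plant extract also carries flavonoids, other phenols and polysaccharides, and intestinal epithelial cells have several sensors for such compounds. The aryl hydrocarbon receptor (AhR) is a ligand-activated transcription factor that turns on cytochrome P450 genes of family 1. NRF2 turns on genes for glutathione synthesis and quinone reduction when electrophiles or oxidants modify its inhibitor KEAP1. ATF4 is translated when the kinases of the integrated stress response are active, and it raises genes for amino acid synthesis, amino acid uptake and tRNA charging. NF-kB drives chemokines that attract neutrophils and lymphocytes. Mitochondria carry their own genome, whose long transcripts are cut into 2 rRNAs, 13 mRNAs and a set of tRNAs.

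Of the 13 epithelial and colorectal markers checked, all were above the filter, with KRT8, a keratin of simple epithelium, between 5637 and 7321 CPM (CPM are counts scaled to a common library size) in the 6 libraries. The leukocyte and fibroblast markers PTPRC, MS4A1, COL1A2 and DCN were at or below 0.0450 CPM in each library, and 14 of the 18 markers of other cell types did not pass the filter. The 4 that passed were CD68, a lysosomal protein of macrophages, CD14, COL1A1 and PECAM1. CD68 had 6.605, 7.304 and 7.78 CPM in vehicle and 10.3, 10.3 and 11.6 CPM at the high dose, and it was a DEG without high-dose replicate 2 (0.60, adjusted p = 0.00222) but not with it (0.57). CD14 lay between 2.43 and 4.35 CPM, COL1A1 between 0.354 and 1.29 CPM and PECAM1 between 1.36 and 2.2 CPM, each with overlapping groups. The part of CD68 in the results below was not tested. The libraries held between 15941255 and 33866644 expected counts. High-dose replicate 2 had the lowest total and stood apart from all others before any comparison was made. It lay at −70.7 on the first principal component of log2 CPM (33.6% of the variance), where the other libraries lay between −14.7 and 14.5. Its log2 differences from its 2 sister libraries had an SD of 0.487 over genes, against 0.0966 to 0.280 in the other libraries. Genes with long transcripts were lower in it (median −0.18 on the log2 scale against the vehicle mean) and genes with short transcripts were higher (0.07). Its part in the results below was measured by fitting the comparison with vehicle with and without it, on the same genes.

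With all libraries, 193 genes were upregulated (1.26% of the genes tested) and 258 were downregulated (1.68%) at the high dose, where a differentially expressed gene (DEG) is one that changed by over 1.5-fold at an adjusted p under 0.05 (quasi-likelihood test of edgeR, Benjamini-Hochberg). Without high-dose replicate 2, 299 genes were upregulated (1.94%) and 458 were downregulated (2.98%). At an adjusted p under 0.05 and any fold change, 433 of the 15374 genes were upregulated and 454 downregulated with all libraries. Without high-dose replicate 2 these counts were 1542 and 1397, and such counts in the lists below are to be read against them. The DEGs in both fits were 178 upregulated (1.16%) and 229 downregulated genes (1.49%), and none changed direction. These 407 genes, which are said to hold, were 90.2% of the 451 DEGs with all libraries and 53.8% of the 757 without replicate 2. A further 44 genes were DEGs only with the library and 350 only without it. The median standard error of a log2 fold change was 0.13 with the library and 0.09 without it. Among the genes that held, the median log2 fold change was 0.99 for upregulated and −0.97 for downregulated genes, and 25 upregulated and 12 downregulated genes changed by more than 4-fold. The 3 high-dose libraries lay wholly above or below the 3 vehicle libraries for 3382 genes (22.0%), so a lack of overlap on its own is a weak statement about a gene. The RNA comes from bulk cultures, in which fewer cells of a state and less RNA per cell cannot be told apart.

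**Figure D1:**
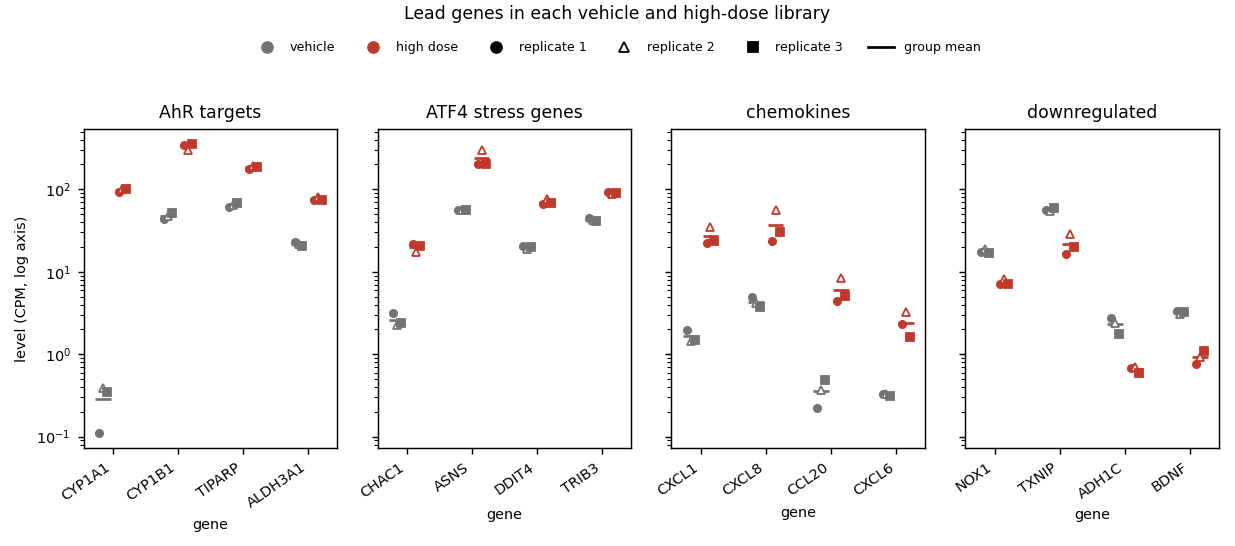
Levels (CPM, log axis) of 16 genes in each vehicle (grey) and high-dose (red) library, with the replicate number as the symbol and the group mean as a line. The high-dose libraries lay apart from the vehicle libraries for each of these genes, and CYP1A1 went from at most 0.394 CPM in vehicle to at least 92.1 CPM.

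Among upregulated genes that held, the largest log2 fold change was that of CYP1A1, a target of AhR. Of the 10 tested genes of the list for AhR and its targets, 6 were upregulated with and without high-dose replicate 2, none was downregulated, and the median log2 fold change was 0.85 (0.64 without replicate 2), against 0.01 (−0.01) over all genes tested. CYP1A1 (ENSG00000140465, chromosome 15, 74719542 to 74725536, GRCh38), the monooxygenase that oxidizes polycyclic aromatic compounds, had 0.1101, 0.394 and 0.352 CPM in vehicle replicates 1 to 3 and 92.1, 102 and 101 CPM in high-dose replicates 1 to 3. These vehicle values rest on 2 to 13 counts per library, so the size of its rise, a log2 fold change of 8.29 ± 0.35 (adjusted p = 4.89e-08), is imprecise at the low end. Here and below a log2 fold change is given ± its standard error. It was 8.26 (adjusted p = 1e-06) without high-dose replicate 2, and the 3 high-dose libraries were close together.

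CYP1B1 (chromosome 2, 38066973 to 38109902), the second P450 of this family, had 43.98, 47.5 and 51.8 CPM in vehicle and 348, 299 and 358 CPM at the high dose, a log2 fold change of 2.81 ± 0.15 (adjusted p = 5.54e-07). High-dose replicate 2 was the lowest of the 3 treated libraries for it, and without that library the value was 2.88 (adjusted p = 5.02e-06). TIPARP, an ADP-ribosyltransferase that restrains AhR, rose from 61.3, 64.1 and 68.7 to 174, 192 and 189 CPM, and ALDH3A1, which oxidizes aromatic and fatty aldehydes, rose from 22.9, 21.5 and 20.7 to 74.03, 81.4 and 74.1 CPM. Their log2 fold changes were 1.51 ± 0.09 (adjusted p = 9.55e-07) and 1.82 ± 0.07 (adjusted p = 3.43e-08). UGT1A6, a glucuronosyltransferase, and NQO1, a quinone reductase that NRF2 also controls, were the remaining members that rose, by 0.81 and 0.89. AHRR, the repressor of AhR and often a sensitive target in other cells, had 3.302, 5.33 and 4.57 CPM in vehicle and 5.67, 3.33 and 5.72 CPM at the high dose, and these groups overlapped (log2 fold change 0.17 ± 0.20, adjusted p = 0.696). UGT1A6 shares exons with other UGT1A genes, so its level depends on how reads were divided.

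The letters GCGTG, the core that AhR and its partner bind, are shown in capitals in the promoters of 2 of these genes, taken from RefSeq (GRCh38.p14), to give the sequence upstream of the response. Each run covers the 250 bases before the start of the gene, 5′ to 3′.
CYP1A1 (chr15:74725529-74725778, minus strand): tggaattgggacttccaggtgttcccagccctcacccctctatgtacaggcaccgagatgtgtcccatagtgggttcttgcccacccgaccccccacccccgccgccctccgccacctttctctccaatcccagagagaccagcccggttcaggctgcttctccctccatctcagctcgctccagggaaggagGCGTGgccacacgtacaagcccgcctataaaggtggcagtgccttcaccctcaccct
TIPARP (chr3:156674340-156674589, plus strand): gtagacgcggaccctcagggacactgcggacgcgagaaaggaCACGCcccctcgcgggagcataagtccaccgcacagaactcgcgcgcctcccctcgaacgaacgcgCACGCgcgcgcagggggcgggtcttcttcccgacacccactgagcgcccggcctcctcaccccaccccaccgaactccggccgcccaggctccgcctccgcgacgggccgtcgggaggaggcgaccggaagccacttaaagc
Of the 6 AhR targets that held, 4 were found in the RefSeq promoter table, and 3 of these carried the letters on either strand, whereas 31.9% of all 27305 promoters of this length did. The match in CYP1A1 began 57 bases before its start, and those in TIPARP 208 and 142 bases before it. Such a match is a description of the window and not a bound site. The list was written with results of these data known, so the share describes these genes only.

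Few other genes for the breakdown of foreign compounds were DEGs. In the list of PXR targets and other cytochrome P450 genes, 3 of 18 tested genes were upregulated in both fits, and these were CYP4F3, CYP4F11 and CYP4F12, fatty acid hydroxylases of 1 cluster on chromosome 19 that resemble each other. CYP4F12 had 2.59, 2.73 and 2.72 CPM in vehicle and 4.41, 4.74 and 5.29 CPM at the high dose, a log2 fold change of 0.85 ± 0.11 (adjusted p = 0.00078). CYP3A5, a drug-metabolizing enzyme of the intestine, had a log2 fold change of 0.13 ± 0.06 (adjusted p = 0.312) and was not a DEG. The receptor PXR itself (NR1I2) had at most 7 counts in any of the 6 libraries and was not tested. Among 25 conjugation and efflux genes, UGT1A6 and ABCC2, an export pump of the apical membrane, were upregulated in both fits. ABCC2 had 0.4403, 1.000 and 0.791 CPM in vehicle and 2.21, 1.27 and 1.69 CPM at the high dose, and it was a DEG in 8 of 15 alternative analyses. ABCC3, its basolateral relative, had 417, 462 and 458 CPM in vehicle against 710.4, 485 and 698 CPM, with high-dose replicate 2 near vehicle, and it passed the fold threshold only without that library (0.66, adjusted p = 8.57e-07, against 0.50 with it).

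Alcohol and aldehyde metabolism split by gene. ALDH1A3, which makes retinoic acid, rose from 17.7, 18.9 and 19.2 CPM in vehicle to 68.98, 78.9 and 73.5 CPM at the high dose, a log2 fold change of 1.99 ± 0.10 (adjusted p = 2.07e-07). ALDH3A2, a fatty aldehyde dehydrogenase, rose by 0.78 and DHRS9, a retinol dehydrogenase, by 1.10. In the opposite direction, ADH1C fell from 2.75, 2.39 and 1.76 to 0.675, 0.708 and 0.584 CPM and ADH6 from 5.06, 5.001 and 5.45 to 2.07, 1.98 and 1.84 CPM, with log2 fold changes of −1.82 ± 0.24 (adjusted p = 0.000636) and −1.40 ± 0.11 (adjusted p = 2.3e-05). All 5 held without high-dose replicate 2, so of 24 tested members 3 rose and 2 fell. ADH1C has close relatives in its cluster, and reads could be divided between them.

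Some aldo-keto reductases, which reduce carbonyls and steroids, rose. Of 12 tested aldo-keto and carbonyl reductases, 4 were upregulated in both fits and none was downregulated (median log2 fold change 0.29, and 0.14 without replicate 2). AKR1B10 had 111, 101 and 103 CPM in vehicle and 210.2, 269 and 209 CPM at the high dose. AKR1C1 had 14.4, 12.6 and 13.7 CPM in vehicle and 26.7, 48.7 and 29.7 CPM at the high dose. High-dose replicate 2 was the highest library for both, and leaving it out lowered the log2 fold change from 1.13 to 1.00 for AKR1B10 and from 1.36 to 1.07 for AKR1C1. AKR1C2 and AKR1C3 rose by 1.41 and 1.03. The AKR1C genes are near copies of each other, and their values are uncertain to the degree that reads were shared.

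NRF2 targets mostly had small positive fold changes, and few passed the threshold. Of the 30 tested genes in the list for NRF2, its regulators and NADPH supply, 29 had a positive log2 fold change with all libraries and 23 without replicate 2. Both fits had a median of 0.42, and 18 had an adjusted p under 0.05 at any fold change, yet only 5 passed the 1.5-fold threshold with all libraries and 8 without replicate 2. The 5 held in both fits. HMOX1, which breaks down heme, rose from 9.69, 8.304 and 9.32 CPM in vehicle to 17.2, 22.4 and 18.4 CPM at the high dose, a log2 fold change of 1.09 ± 0.11 (adjusted p = 9.38e-05). TXNRD1, thioredoxin reductase, had 324, 332 and 357 CPM in vehicle and 557, 551 and 563 CPM at the high dose, a log2 fold change of 0.72 ± 0.07 (adjusted p = 7.73e-05). NQO1 had 535, 478 and 497 CPM in vehicle and 773, 1230.0 and 788 CPM at the high dose, where replicate 2 was well above its sisters, and its log2 fold change of 0.89 became 0.63 without that library. ME1, malic enzyme, and TRIM16L rose by 0.73 and 0.78. SRXN1, sulfiredoxin, had an adjusted p of 0.00229 but a log2 fold change of 0.43, below the threshold.

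In glutathione metabolism the genes for making glutathione were among those that rose. Of 38 tested genes, 5 were upregulated in both fits, and these were GCLC and GCLM, the subunits of the rate-limiting ligase, SLC7A11 and SLC3A2, the cystine importer, and CHAC1, which degrades glutathione. GCLC rose from 74.7, 71.2 and 76.5 to 124, 133 and 122 CPM, a log2 fold change of 0.77 ± 0.06 (adjusted p = 2.3e-05), and GCLM by 0.75. SLC7A11 rose from 129.7, 142 and 145 to 338, 269 and 351 CPM, a log2 fold change of 1.20 ± 0.10 (adjusted p = 2.93e-05). The list median had opposite signs with and without high-dose replicate 2 (0.07 and −0.11). Replicate 2 lay at 0.38 against the vehicle mean and its sisters at −0.15 and −0.08, so no direction is given for the list as a whole. Of heme and iron genes, ALAS1, the first enzyme of heme synthesis, rose by 0.86, whereas STEAP4, a metalloreductase, was downregulated at −0.82. None of 26 metallothionein and zinc transporter genes was a DEG in either fit, and MT2A was at 33.96, 24.9 and 25.7 CPM in vehicle and 23.1, 20.9 and 20.02 CPM at the high dose (log2 fold change −0.40 ± 0.12, adjusted p = 0.0746). Among the 26, an adjusted p under 0.05 at any fold change was seen in 1 gene with all libraries and in 3 without replicate 2.

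By number, the ATF4 list had the most DEGs of the 48 function lists. Its share of upregulated genes with all libraries was 51.9%. This was below the AhR list (60.0%) and the mitochondrial rRNAs (100.0%), and 61.5% of the mitochondrial mRNAs were downregulated. The lists share members and were written with results of these data known, so this rank describes the listed genes only. Of 27 tested genes of the list for ATF4 and its stress effectors, 14 were upregulated with all libraries, 13 without high-dose replicate 2 and 13 in both, and 1 (KLHL24) was downregulated in both. The median log2 fold change was 0.68 with all libraries and 0.67 without replicate 2, and the medians of the 3 high-dose libraries against the vehicle mean were 0.55, 0.75 and 0.57. CHAC1 (chromosome 15, 40952962 to 40956512) rose from 3.14, 2.27 and 2.37 CPM in vehicle to 21.9, 17.5 and 20.7 CPM at the high dose, a log2 fold change of 2.97 ± 0.13 (adjusted p = 1.03e-07). DDIT4, which inhibits mTORC1, rose from 20.5, 19.03 and 19.8 to 66.01, 76.2 and 68.5 CPM, a log2 fold change of 1.83 ± 0.07 (adjusted p = 3.43e-08), and without replicate 2 it was 1.77 (adjusted p = 1.53e-12). TRIB3, a pseudokinase that binds AKT and ATF4, rose from 44.4, 42.6 and 41.3 to 93.3, 87.00 and 89.6 CPM, a log2 fold change of 1.07 ± 0.07 (adjusted p = 4.21e-06). For these 3 genes the groups were far apart. Replicate 2 lay outside the range of its sisters, below them for CHAC1 and TRIB3 and above them for DDIT4.

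The remaining ATF4 genes that held were ASNS, ADM2, ATF3, VLDLR, SESN2, JDP2, CTH, DDIT3, GDF15 and SLC7A11, with log2 fold changes between 0.68 (GDF15, a secreted stress cytokine) and 2.53 (ADM2, adrenomedullin 2). DDIT3, which encodes CHOP, had 6.99, 5.58 and 5.62 CPM in vehicle and 10.1, 11.6 and 9.01 CPM at the high dose, a log2 fold change of 0.75 ± 0.13 (adjusted p = 0.00372). The mRNA of ATF4 itself had 271, 243 and 237 CPM in vehicle and 358, 421 and 349 CPM at the high dose, and it passed the 1.5-fold threshold only with replicate 2. Its log2 fold change was 0.59 ± 0.08 (adjusted p = 0.00146), and 0.50 (adjusted p = 2.27e-05) without that library. Its groups did not overlap in either case. Of 38 ER chaperones and unfolded protein response genes, none was a DEG in either fit. HSPA5, the ER chaperone BiP, had 368, 369.6 and 375 CPM in vehicle and 415, 495 and 396 CPM at the high dose (log2 fold change 0.23 ± 0.08, adjusted p = 0.14), and 3 of the 38 genes had an adjusted p under 0.05 at any fold change, 12 without replicate 2. Of 29 cytosolic heat shock genes none was a DEG in either fit, and 1 and 7 had such an adjusted p with and without replicate 2. Over all 15374 genes tested, 433 were upregulated and 454 downregulated at such an adjusted p with all libraries, and 1542 and 1397 without replicate 2.

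Several enzymes for amino acid synthesis and tRNA charging also rose. ASNS (chromosome 7, 97851677 to 97872542), asparagine synthetase, had 55.5, 56.1 and 56.5 CPM in vehicle and 204, 299.7 and 205 CPM at the high dose, a log2 fold change of 2.08 ± 0.13 (adjusted p = 1.94e-06). Replicate 2 was the highest library, and without it the value was 1.87 (adjusted p = 1.65e-13). PSAT1 and PHGDH, which make serine, rose by 1.44 and 0.96, and MTHFD2 and PCK2, mitochondrial enzymes of one-carbon and phosphoenolpyruvate metabolism, by 0.78 and 0.98. With CTH and GPT2, 7 of 35 tested amino acid synthesis and one-carbon genes were upregulated in both fits and none was downregulated. Of 20 cytosolic aminoacyl-tRNA synthetases, all had a positive log2 fold change with all libraries and 18 without replicate 2, with medians of 0.47 and 0.35. The 5 that passed the threshold in both fits were SARS1, GARS1, WARS1, AARS1 and CARS1, with log2 fold changes from 0.64 to 0.83. GARS1 had 172, 172 and 176 CPM in vehicle and 278, 331 and 289 CPM at the high dose.

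Amino acid transporters of the plasma membrane gave 6 upregulated genes and 1 downregulated gene of 24 tested, in both fits. SLC6A9, a glycine transporter, rose from 0.715, 0.546 and 0.527 to 4.28, 2.55 and 5.57 CPM, a log2 fold change of 2.84 ± 0.32 (adjusted p = 0.000249). SLC7A5, the large neutral amino acid transporter, had 282, 288 and 298 CPM in vehicle and 640.4, 357 and 617 CPM at the high dose, where replicate 2 was well below its sisters, and its log2 fold change of 0.90 became 1.12 without that library. SLC3A1, a subunit of the cystine and dibasic amino acid transporter of the brush border, fell from 3.19, 3.15 and 3.87 to 1.31, 1.203 and 0.984 CPM, a log2 fold change of −1.56 ± 0.20 (adjusted p = 0.000525). SLC7A1, the arginine and lysine transporter, had 504, 615 and 621 CPM in vehicle and 932, 469 and 904 CPM at the high dose. For SLC7A1, replicate 2 was below every vehicle library and its sisters were above them, and the gene was a DEG only without it (0.66, adjusted p = 2.25e-05).

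The promoters of CHAC1 and ASNS are shown with the letters TGATGNAA, a form of the element that ATF4 binds with CEBP factors, in capitals. They cover 250 bases before each start, from RefSeq (GRCh38.p14), 5′ to 3′.
CHAC1 (chr15:40953221-40953470, plus strand): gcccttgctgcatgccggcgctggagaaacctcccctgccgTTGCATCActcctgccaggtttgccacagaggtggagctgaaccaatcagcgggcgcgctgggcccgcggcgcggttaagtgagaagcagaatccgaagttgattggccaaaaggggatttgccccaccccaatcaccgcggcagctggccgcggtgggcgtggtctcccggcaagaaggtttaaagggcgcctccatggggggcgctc
ASNS (chr7:97872409-97872658, minus strand): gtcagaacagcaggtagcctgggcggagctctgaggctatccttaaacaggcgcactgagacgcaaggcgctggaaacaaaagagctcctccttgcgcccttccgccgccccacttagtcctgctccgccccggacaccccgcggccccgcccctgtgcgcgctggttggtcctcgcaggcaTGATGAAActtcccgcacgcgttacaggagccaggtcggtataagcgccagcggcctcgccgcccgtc
The starts are those of RefSeq, and for CHAC1 and ASNS they lie inside the longer span of the gene annotation used for names. The match in ASNS began 68 bases before the start and that in CHAC1, on the opposite strand, 209 bases before it. Of the 28 genes that held as upregulated in the ATF4, amino acid synthesis, tRNA synthetase and amino acid transporter lists, 26 had a promoter in the table and 4 carried the letters, against 3.19% of all promoters. ATF3 and AARS1 were the other carriers. For the 14 upregulated genes of the NRF2, glutathione and aldo-keto reductase lists, 10 had a promoter and 4 of these (TXNRD1, ME1, SLC3A2 and GCLM) carried TGACNNNGC on either strand, against 11% of all promoters. These lists were written with results of these data known, so the shares describe the genes shown and support no statement on a cause.

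**Figure D2:**
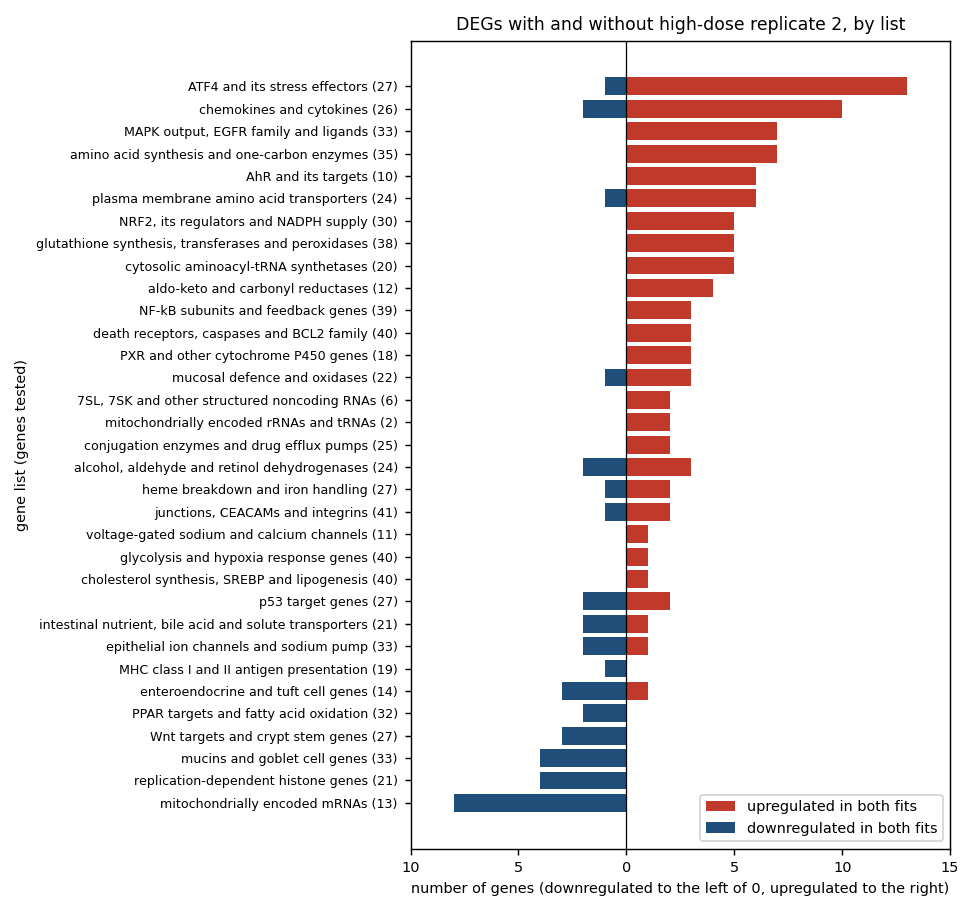
Number of genes of each function list that were DEGs both with and without high-dose replicate 2, upregulated in red to the right and downregulated in blue to the left, with the number of genes tested in brackets. The ATF4 list reached 13 upregulated genes, the chemokine and cytokine list 10, and the mitochondrially encoded mRNAs had 8 downregulated genes.

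Several chemokines rose from low levels in vehicle. Of 26 tested chemokines and cytokines, 10 were upregulated and 2 were downregulated in both fits, and the median log2 fold change was 0.55 (0.34 without replicate 2). With at least 10 counts required in every library, which leaves out the scarcest members, this median was 0.03. CXCL1 (chromosome 4, 73869393 to 73871308), which attracts neutrophils, had 1.98, 1.45 and 1.49 CPM in vehicle and 22.2, 34.5 and 23.8 CPM at the high dose, a log2 fold change of 4.04 ± 0.19 (adjusted p = 1.12e-07). CXCL8, interleukin 8, had 4.95, 4.18 and 3.73 CPM in vehicle and 23.8, 55.6 and 29.98 CPM at the high dose, a log2 fold change of 3.08 ± 0.27 (adjusted p = 3.59e-05). CCL20 (chromosome 2, 227805739 to 227817564), which attracts lymphocytes and dendritic cells through CCR6, had 0.2202, 0.364 and 0.483 CPM in vehicle and 4.46, 8.49 and 5.07 CPM at the high dose, a log2 fold change of 4.00 ± 0.32 (adjusted p = 1.82e-05). In all 3 genes every high-dose library was above every vehicle library and replicate 2 was the highest, so that leaving it out lowered the log2 fold changes to 3.84, 2.67 and 3.70.

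CXCL6, CXCL2 and CXCL3, neutrophil chemokines of the same cluster on chromosome 4, rose by 2.81, 2.51 and 2.11, and CXCL1, CXCL2 and CXCL3 are similar enough to share reads. IL32, a proinflammatory cytokine, rose by 1.93, CSF1, the macrophage growth factor, by 1.35, and ACKR4, a scavenging chemokine receptor, by 1.19. LIF, a cytokine of the interleukin 6 family, rose by 0.70. The 2 downregulated members were TNFSF10, the death ligand TRAIL, and IL18, at −0.78 and −0.69. CXCL10, an interferon-induced chemokine, stayed at a few counts per library, with 0.275, 0.152 and 0.395 CPM in vehicle and 0.0901, 0.779 and 0.307 CPM at the high dose, and a change could not be detected at this depth. None of 40 interferon-stimulated genes was a DEG in either fit, and 1 of them had an adjusted p under 0.05 in each fit. Their median log2 fold change was −0.21.

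The kB motif, to which NF-kB binds, was found in the promoters of 7 of the 9 upregulated genes of the chemokine and NF-kB lists that had an entry in the RefSeq table (13 genes in all), and in 6.6% of all promoters. The carriers were CXCL1, CXCL2, CXCL3, CXCL6, CCL20, IL32 and BIRC3. The 3 promoters below show the motif in capitals, in 2 CXC chemokines and the CC chemokine, over 250 bases before each start (GRCh38.p14, 5′ to 3′).
CXCL1 (chr4:73869143-73869392, plus strand): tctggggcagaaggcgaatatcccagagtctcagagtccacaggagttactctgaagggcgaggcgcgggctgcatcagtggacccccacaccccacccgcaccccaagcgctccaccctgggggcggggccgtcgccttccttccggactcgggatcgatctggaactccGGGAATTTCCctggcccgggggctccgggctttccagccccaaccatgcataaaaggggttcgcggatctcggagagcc
CXCL6 (chr4:73836428-73836677, plus strand): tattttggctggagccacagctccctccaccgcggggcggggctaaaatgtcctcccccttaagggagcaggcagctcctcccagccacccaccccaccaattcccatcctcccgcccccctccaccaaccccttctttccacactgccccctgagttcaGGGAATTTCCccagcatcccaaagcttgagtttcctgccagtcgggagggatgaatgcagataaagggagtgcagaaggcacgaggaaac
CCL20 (chr2:227813592-227813841, plus strand): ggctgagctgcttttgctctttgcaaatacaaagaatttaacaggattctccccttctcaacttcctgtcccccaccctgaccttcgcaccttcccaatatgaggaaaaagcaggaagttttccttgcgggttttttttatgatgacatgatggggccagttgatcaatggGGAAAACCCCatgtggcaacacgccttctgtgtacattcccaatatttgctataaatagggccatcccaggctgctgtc
The match began 79 bases before the start in CXCL1, 90 bases before it in CXCL6, and 79 bases before it, on the opposite strand, in CCL20. The RefSeq start of CCL20 lies inside the longer span given above. These genes were listed with results of these data known, so the shares describe the genes shown and support no statement on other genes.

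NF-kB subunits and feedback genes were a separate list. Of 39 tested members, 3 were upregulated in both fits and 5 without replicate 2, none was downregulated, and the median log2 fold change was 0.14 (0.20 without replicate 2). ICAM1, a leukocyte adhesion molecule, rose from 3.63, 5.03 and 4.92 to 11.4, 10.4 and 10.9 CPM, a log2 fold change of 1.25 ± 0.12 (adjusted p = 6.96e-05). BIRC3, an inhibitor of cell death, rose from 5.01, 5.06 and 4.92 to 9.68, 10.9 and 11.3 CPM, a log2 fold change of 1.09 ± 0.12 (adjusted p = 0.000171). NFKBIA, the inhibitor that NF-kB induces, had an adjusted p of 0.023 with a log2 fold change of 0.38, under the threshold. TNFAIP3, a feedback deubiquitinase, was a DEG only without replicate 2, where its log2 fold change was 0.80 (adjusted p = 0.0216).

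Mucosal defence genes moved both ways. C3, the central complement component, had 1 count in the 3 vehicle libraries together and 44, 20 and 63 counts in the high-dose libraries, a ratio of 136 on the CPM scale with a 95% counting interval from 24.0 to 5430.0, which covers counting error only. CFB, complement factor B, rose by 1.07, and PI3, the protease inhibitor elafin, rose from 4.57, 3.33 and 3.47 to 14.3, 18.3 and 16.9 CPM, a log2 fold change of 2.14 ± 0.13 (adjusted p = 1.94e-06). NOX1, the NADPH oxidase of colon epithelium, fell from 17.6, 18.7 and 16.9 to 7.16, 8.21 and 7.04 CPM, a log2 fold change of −1.26 ± 0.09 (adjusted p = 7.35e-06). These 4 held without replicate 2. CD55, which protects cells from complement, was a DEG only with that library (0.47, adjusted p = 3.38e-05 without it), and LCN2, lipocalin 2, had 92.9, 82.8 and 82.03 CPM in vehicle and 104, 117 and 108 CPM at the high dose and did not reach 1.5-fold (log2 fold change 0.35 ± 0.08, adjusted p = 0.0264). Of 19 antigen presentation genes, HLA-DMB, a class II peptide exchange factor with a level near 1 CPM, was downregulated in both fits at −1.04 and was a DEG in 8 of 15 alternatives.

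Several genes of growth factor signalling rose. Of 33 tested genes of MAPK output, the EGFR family and its ligands, 7 were upregulated in both fits and 9 without replicate 2, with no downregulated gene in either. EREG, the EGFR ligand epiregulin, rose from 75.8, 77.3 and 85.3 to 182, 156 and 173 CPM, a log2 fold change of 1.10 ± 0.10 (adjusted p = 3.59e-05). AREG, amphiregulin, rose by 0.89 and BTC, betacellulin, by 0.60. ERRFI1 and DUSP5, which dampen EGFR and ERK, rose by 0.71 and 0.97, while DUSP6, another ERK phosphatase, had a log2 fold change of 0.11 ± 0.06 (adjusted p = 0.36). EGR1, an immediate early transcription factor, had 32.9, 33.6 and 33.3 CPM in vehicle and 53.9, 32.1 and 63.9 CPM at the high dose, with replicate 2 at the vehicle level, and was a DEG only without it (0.83, adjusted p = 6.35e-06). The list median in replicate 2 was −0.05 against the vehicle mean, whereas it was 0.29 and 0.27 in replicates 1 and 3.

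RNA of the mitochondrial genome showed opposite changes in rRNA and mRNA. The 12S rRNA MT-RNR1 had 1387, 1227 and 1249 CPM in vehicle and 30977, 31764 and 28408 CPM at the high dose, a log2 fold change of 4.56 ± 0.12 (adjusted p = 1.13e-09). The 16S rRNA MT-RNR2 had 10866, 9760.1 and 10195 CPM in vehicle and 103306, 104763 and 88974 CPM at the high dose, a log2 fold change of 3.27 ± 0.12 (adjusted p = 3.43e-08). As a share of all counts, MT-RNR1 was between 0.127% and 0.138% in vehicle and between 2.73% and 2.89% at the high dose, and MT-RNR2 was between 1.01% and 1.08% and between 8.54% and 9.63%. The libraries were prepared for mRNA, and how far the capture of rRNA enters these values was not tested. The 3 high-dose libraries were close together for both rRNAs, and replicate 2 was the highest of them, near replicate 1.

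The 13 mRNAs together took between 7.6% and 8.91% of all counts in vehicle and 4.07%, 3.74% and 2.76% in high-dose replicates 1 to 3. All 13 had a negative log2 fold change in both fits, with a median of −1.24 (−1.21 without replicate 2), and 8 were downregulated in both fits. MT-ND4, a subunit of complex I, fell from 11079, 9072 and 10713 to 4301, 3409 and 2471 CPM, a log2 fold change of −1.60 ± 0.22 (adjusted p = 0.000968). MT-CO3, a subunit of complex IV, fell from 16199, 12872 and 12674 to 6538, 6126 and 5007 CPM, a log2 fold change of −1.24 ± 0.15 (adjusted p = 0.00046). The other 6 that held were MT-ATP8, MT-ND4L, MT-CO2, MT-ND3, MT-ATP6 and MT-CO1, between −1.56 and −0.97. MT-CYB had 8038, 6591 and 8088 CPM in vehicle and 4045, 6618 and 2813 CPM at the high dose, and was a DEG only without replicate 2, which lay at the vehicle level (−1.14, adjusted p = 0.0154). MT-ND6, the 1 mRNA encoded on the light strand, had 686, 379 and 316 CPM in vehicle and 289, 475 and 171 CPM at the high dose, and its groups overlapped (log2 fold change −0.56 ± 0.38, adjusted p = 0.459). The nuclear genome carries partial copies of mitochondrial genes, and the levels of a copy such as MTND4P12 (20.1, 9.18 and 5.84 CPM in vehicle and 2.25, 5.66 and 1.91 CPM at the high dose) depend on how reads of MT-ND4 were divided.

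**Figure D3:**
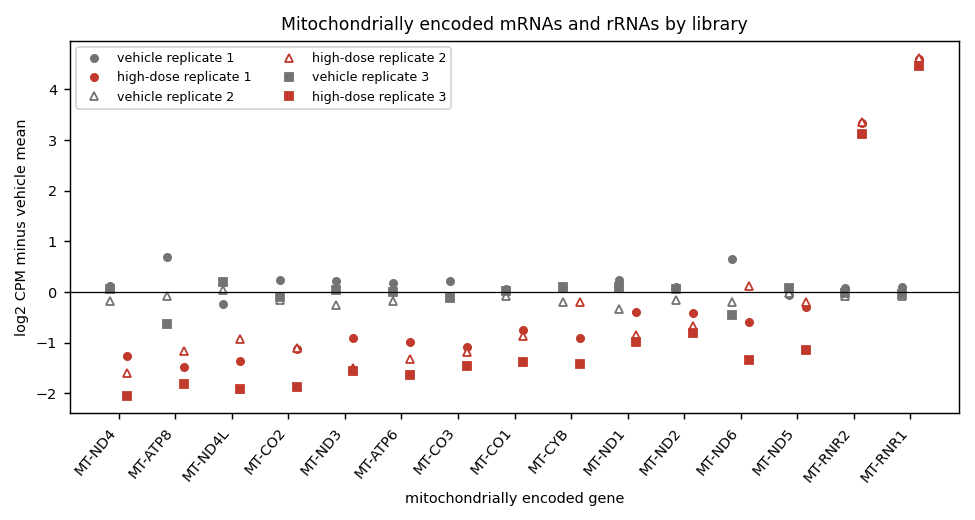
Log2 CPM minus the vehicle mean for the 13 mitochondrially encoded mRNAs and both rRNAs in each vehicle (grey) and high-dose (red) library, with the replicate number as the symbol. The rRNAs lay far above the vehicle libraries in every high-dose library, and the mRNAs lay below 0 in every high-dose library except MT-ND6 in replicate 2.

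Nuclear genes for the same organelle, and those for cytosolic ribosomal proteins, gave few DEGs, and their direction depended on high-dose replicate 2. None of 80 oxidative phosphorylation subunits was a DEG with all libraries, and only NDUFA2, a complex I subunit, was one without replicate 2. Of 77 mitochondrial ribosomal proteins and 83 cytosolic ribosomal proteins, none was a DEG with all libraries, and MRPL54 and RPLP1 alone were DEGs without replicate 2. The 3 lists had no gene with an adjusted p under 0.05 at any fold change with all libraries, and 21, 10 and 11 such genes, all downregulated, without replicate 2. Of all 15374 genes tested, 1397 were downregulated at such an adjusted p without replicate 2, and 454 with all libraries. With all libraries, 46, 55 and 56 genes of the 3 lists had a positive log2 fold change, and without replicate 2 only 1, 18 and 1 did. The list medians were 0.03, 0.08 and 0.085 with all libraries and −0.26, −0.13 and −0.23 without replicate 2. The per-library medians differed in sign. For oxidative phosphorylation they were −0.29 in replicate 1, 0.47 in replicate 2 and −0.21 in replicate 3, for mitochondrial ribosomal proteins −0.15, 0.46 and −0.11, and for cytosolic ribosomal proteins −0.28, 0.56 and −0.17. COX4I1, a subunit of complex IV, was at 214, 159 and 161 CPM in vehicle and 142, 239 and 141 CPM at the high dose. Vehicle replicate 1 also lay above the vehicle mean for these lists, by 0.21, 0.16 and 0.23. These proteins have short transcripts, and short genes as a whole were higher in high-dose replicate 2 by 0.07, and their part in the list medians was not tested.

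Across the 48 function lists, high-dose replicate 2 had a median of the opposite sign to both sister libraries in 14, and all 3 libraries had the same sign in 26. In 22 lists it lay more than 0.25 (log2) from the mean of its sisters. Besides the lists above, those with opposite signs included the proteasome (−0.10, 0.46 and −0.11) and small nucleolar RNA host genes (−0.18, 0.56 and −0.22), for which no direction is given. Lists that kept the sign of their median in each alternative analysis that was run included the AhR, NRF2, aldo-keto reductase, ATF4, amino acid synthesis, tRNA synthetase, chemokine, NF-kB, MAPK, mitochondrial mRNA, mitochondrial rRNA, histone, mucin, enteroendocrine and Wnt lists, and in all 29 of the 48 did so.

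**Figure D4:**
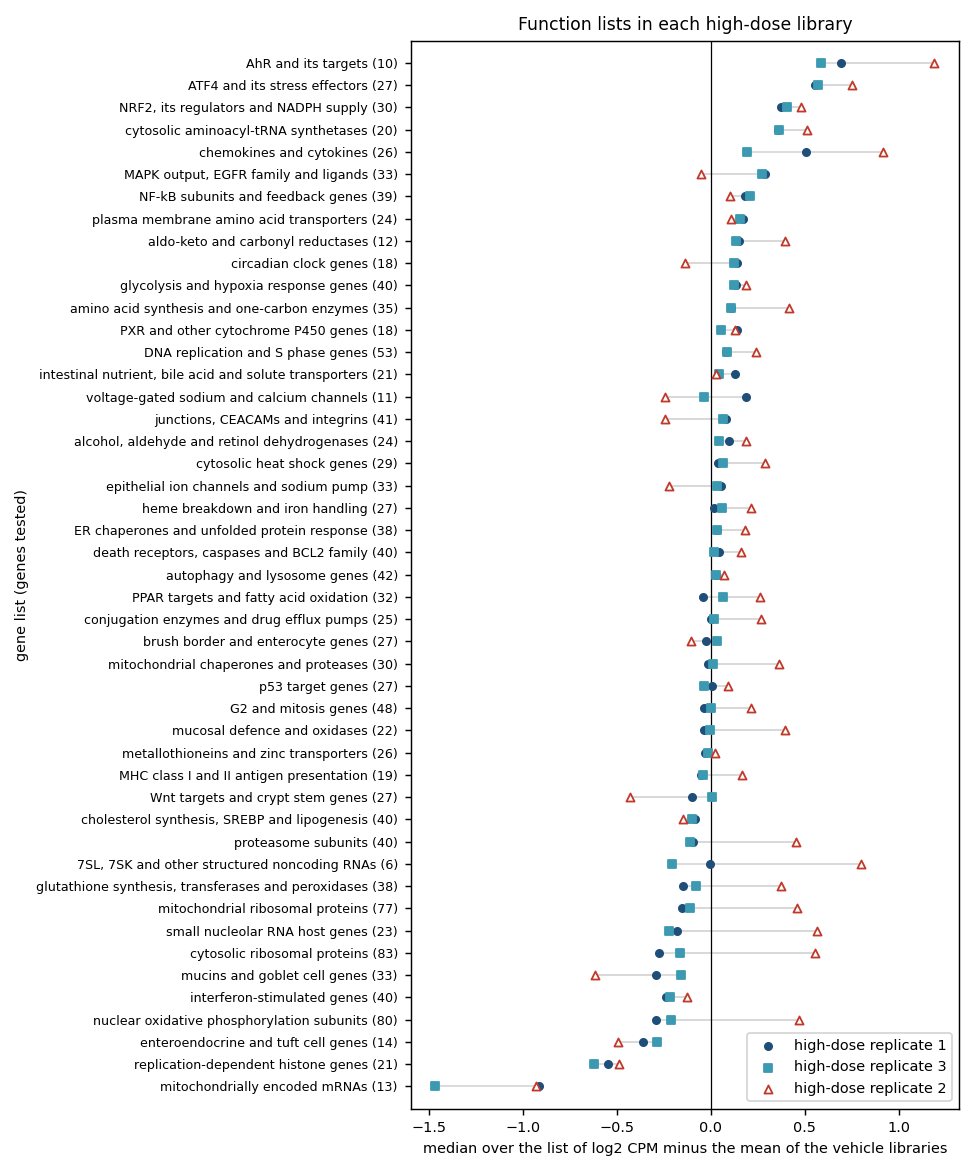
Median over each function list of log2 CPM minus the mean of the vehicle libraries, for high-dose replicates 1 (circles), 2 (open triangles) and 3 (squares), with the genes tested in brackets and the list of mitochondrial rRNAs left out. Replicates 1 and 3 lay close together in most lists, whereas replicate 2 lay on the opposite side of 0 for ribosomal proteins, oxidative phosphorylation and the proteasome.

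The genes that fell included many noncoding RNAs. Of 1790 tested long noncoding RNAs, 69 (3.85%) were downregulated and 14 (0.782%) were upregulated in both fits. For 12453 protein-coding genes the numbers were 130 (1.04%) and 156 (1.25%), and for 183 transcripts listed as still to be experimentally verified 12 (6.56%) and 0. The median log2 fold change was −0.22 for long noncoding RNAs, −0.33 for the unverified transcripts and 0.03 for protein-coding genes, and the first 2 medians were negative in each high-dose library. These RNAs were scarce, with a median vehicle level of 1.29 CPM for long noncoding RNAs against 28.8 CPM for protein-coding genes. As a share of counts, genes other than protein-coding took between 3.40% and 3.47% in vehicle and between 13% and 14.2% at the high dose. The mitochondrial rRNAs were the larger part of this share at the high dose only.

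Several of the largest falls were in such RNAs. ARAP1-AS1, an antisense RNA on chromosome 11, had 78, 43 and 27 counts in vehicle and none in any high-dose library, at least 46.0-fold lower by a floor of 3 counts over the group. Its mean was 2.26 CPM in vehicle and already 0.591 CPM at the medium dose, and high against medium missed the threshold (adjusted p = 0.194). ENSG00000280614 and ENSG00000281181 on chromosome 21 had identical counts in all libraries but vehicle replicate 1, and RSEM could thus hardly separate them. The former had 1080.1, 978 and 909.9 CPM in vehicle and 111, 143 and 74.99 CPM at the high dose. At the medium dose ENSG00000280614 had 158, 90.2 and 110 CPM, a log2 difference (high minus medium) of −0.13 ± 0.28 (adjusted p = 0.866). At the low dose its mean was 142 CPM. ENSG00000279573, an unverified transcript on chromosome 17, fell from 3.03, 2.42 and 2.15 to 0.585, 0.779 and 0.3997 CPM and SND1-IT1, an intronic RNA, from 1.82, 1.61 and 1.27 to 0.3602, 0.9202 and 0.215 CPM. At the low dose their means were 0.564 and 0.297 CPM, and at the medium dose 0.854 and 0.316 CPM. The differences between high and medium dose missed the threshold, at −0.63 ± 0.33 (adjusted p = 0.564) and 0.45 ± 0.51 (adjusted p = 0.743). In the opposite direction, the 7SL RNAs of the signal recognition particle rose, with RN7SL2 at 9.08, 6.36 and 4.79 CPM in vehicle and 69.4, 230.3 and 54.4 CPM at the high dose. High-dose replicate 2 was the highest library by far, and the log2 fold change of 4.13 became 3.22 without it. RN7SL1, a near copy, went from 3.58 to 2.38. The means of RN7SL2 and RN7SL1 were already 86.5 and 36.1 CPM at the low dose, and 76.5 and 32.4 CPM at the medium dose. High against medium missed the threshold for both, at 0.61 ± 0.44 (adjusted p = 0.639) and 1.04 ± 0.51 (adjusted p = 0.531). Without high-dose replicate 2 these differences were −0.32 (adjusted p = 0.754) and −0.18 (adjusted p = 0.837), so no further rise from the medium to the high dose was shown. For each RNA named in this paragraph the low-dose mean already lay well apart from the vehicle mean. A trait of the vehicle libraries cannot be told apart here from an effect of the lowest dose, and low dose against vehicle was not tested. For genes that overlap another on the opposite strand the values are uncertain, since the strand setting of the counting is not given.

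Falls in protein-coding genes were spread over several functions. BDNF, a neurotrophin, fell from 3.36, 3.09 and 3.21 CPM in vehicle to 0.765, 0.9202 and 1.11 CPM at the high dose, a log2 fold change of −1.76 ± 0.23 (adjusted p = 0.000597). SLC14A1, a urea transporter, fell from 8.81, 7.52 and 8.22 to 2.66, 2.55 and 2.89 CPM, a log2 fold change of −1.58 ± 0.12 (adjusted p = 8.57e-06). TXNIP, which binds thioredoxin and restrains glucose uptake, fell from 55.5, 54.3 and 59.1 to 16.6, 28.6 and 20.05 CPM, a log2 fold change of −1.39 ± 0.15 (adjusted p = 0.000171). All 3 held, and in TXNIP the fall was larger without replicate 2 (−1.61).

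Several genes of secretory cell types and of the crypt fell. Of 33 tested mucin and goblet cell genes, 4 were downregulated in both fits and 9 without replicate 2, with 1 upregulated only without it. ATOH1, the transcription factor that sets secretory fate, fell from 4.95, 3.97 and 4.75 to 1.49, 1.84 and 2.18 CPM, a log2 fold change of −1.28 ± 0.18 (adjusted p = 0.00139). CREB3L1, a factor of secretory capacity, MUC3A, a membrane mucin whose repeats are shared with relatives, and TFF3, a goblet cell peptide, had log2 fold changes of −0.86, −0.74 and −0.67. TFF3 was a DEG in 8 of 16 alternatives. AGR2, a goblet cell disulfide isomerase, had 224, 205 and 205 CPM in vehicle and 109.7, 203 and 124 CPM at the high dose, and only without replicate 2 was it a DEG (−0.85, adjusted p = 1.25e-07). MUC5AC, a gel-forming mucin, had 96.9, 122 and 132 CPM in vehicle and 239, 73.8 and 216 CPM at the high dose, so that replicate 2 lay below vehicle and its sisters above, and the gene was upregulated only without it (0.96, adjusted p = 0.0102). MUC2, the main colonic mucin, had 27.8, 34.9 and 36.5 CPM in vehicle and 31.2, 8.28 and 26.8 CPM at the high dose, where replicate 2 was the lowest library and its sisters overlapped with vehicle.

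Of 14 tested enteroendocrine and tuft cell genes, 3 were downregulated and 1 was upregulated in both fits, most of them near 1 CPM. NEUROG3, the endocrine fate factor, fell from 1.596, 1.09 and 1.27 to 0.765, 0.566 and 0.492 CPM, and POU2F3, the tuft cell factor, rose from 1.21, 0.9395 and 0.615 to 1.62, 1.91 and 3.04 CPM, with log2 fold changes of −1.10 ± 0.25 (adjusted p = 0.0226) and 1.3 ± 0.29 (adjusted p = 0.0196). They were DEGs in 10 of 15 and 11 of 16 alternatives. POU2AF1, a coactivator of POU transcription factors, and SUCNR1, the succinate receptor, were the others, at −0.70 and −0.95. Of 27 Wnt targets and crypt stem genes, SOX4, EPHB3 and DKK1 were downregulated in both fits, at −0.76, −0.72 and −0.85. The stem cell receptor LGR5, AXIN2 and MYC were not DEGs in either fit, and MYC was at 235, 217 and 215 CPM in vehicle and 263, 229 and 231 CPM at the high dose.

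Replication-dependent histone genes, whose mRNAs lack a poly(A) tail, had negative log2 fold changes in 20 of 21 tested genes and a median of −0.57 (−0.64 without replicate 2). H2AC6, H2BC9, H3C10 and H4C15 were downregulated in both fits, and 6 genes were without replicate 2. H2AC6 had 11.8, 9.61 and 11.4 CPM in vehicle and 4.95, 8.57 and 5.72 CPM at the high dose, a log2 fold change of −0.80 ± 0.16 (adjusted p = 0.0132). Histone genes are similar to each other, and most of the 58 matched genes were below the filter. Genes of DNA replication and mitosis gave no DEG in either fit among 53 and 48 tested, with 3 and 2 at an adjusted p under 0.05 at any fold change (14 and 6 without replicate 2). MCM2, a helicase subunit, was at 197, 204 and 197 CPM in vehicle and 212, 202 and 215 CPM at the high dose.

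Ion and nutrient transport changed in single genes. KCNE3, a potassium channel subunit needed for chloride secretion, fell from 65.4, 61.2 and 62.96 to 37.4, 40.8 and 36.9 CPM, a log2 fold change of −0.72 ± 0.07 (adjusted p = 9.38e-05). KCNJ3, an inwardly rectifying potassium channel, was downregulated at −1.16, and SLC4A11, a membrane transporter of the bicarbonate transporter family, rose by 0.85. SLC12A2, the basolateral sodium-potassium-chloride cotransporter, had 664, 719 and 741 CPM in vehicle and 479, 397 and 501 CPM at the high dose and was a DEG only with replicate 2. Its log2 fold change was −0.62 ± 0.10 (adjusted p = 0.00235), and −0.53 (adjusted p = 4.82e-05) without that library. CFTR, the chloride channel, had an adjusted p of 0.00994 and a log2 fold change of −0.44. Of 33 ion channel and pump genes, 1 was thus upregulated and 2 were downregulated in both fits. FGF19, the bile acid-induced hormone, rose by 0.76, whereas SLC5A1, the sodium-glucose cotransporter, and NR0B2, a bile acid-responsive corepressor, were downregulated at −0.79 and −0.82. These were the 3 DEGs of 21 tested nutrient and bile acid transport genes in both fits.

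Of 36 genes listed for voltage-gated channels and for other channels and receptors of excitable cells, 11 passed the filter. The 1 DEG that held was GRIN1, a subunit of the NMDA glutamate receptor and not a voltage-gated channel, at 2.53, 2.64 and 1.98 CPM in vehicle and 4.91, 3.54 and 3.54 CPM at the high dose, and it was a DEG in 9 of 16 alternatives. CACNB1, an auxiliary calcium channel subunit, was a DEG only without replicate 2 (0.66, adjusted p = 0.000112). SCN9A, a sodium channel, had between 8 and 12 counts in each vehicle library and between 1 and 6 in each high-dose library and was not tested.

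Stress and death genes changed in part. SESN2, which inhibits mTORC1, rose by 1.11, and GDF15 and it were the upregulated members of 27 tested p53 targets, with BTG2, an antiproliferative gene, and SESN1 downregulated at −1.02 and −0.73. CDKN1A, the inhibitor p21, was a DEG only without replicate 2 (0.61, adjusted p = 0.000216), and MDM2, another p53 target, had a log2 fold change of −0.07 ± 0.09 (adjusted p = 0.759). Among 40 genes of death receptors, caspases and the BCL2 family, BMF and PMAIP1, which oppose BCL2 proteins, rose by 0.80 and 0.86 beside BIRC3. VEGFA, the angiogenic growth factor and also an ATF4 target, rose by 0.81 and was the only DEG of 40 glycolysis and hypoxia genes, while CA9, a hypoxia marker, had 83.4, 66.9 and 60.1 CPM in vehicle and 57.1, 67.04 and 58.02 CPM at the high dose (log2 fold change −0.21 ± 0.12, adjusted p = 0.365). ABCG1, a cholesterol exporter, rose by 0.75 and was the only DEG of 40 cholesterol and lipid synthesis genes, 34 of which had a negative log2 fold change with all libraries and 25 without replicate 2. CEACAM7 and CEACAM5, adhesion molecules of colon epithelium that share sequence, rose by 1.84 and 0.70, and ITGA1, a collagen receptor, was downregulated at −0.68. No DEG was found in either fit among 42 autophagy and 18 circadian clock genes, of which 1 in each list had an adjusted p under 0.05 at any fold change with all libraries and 5 and 4 without replicate 2.

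The high dose was also set against the medium dose, gene by gene, with the same high-dose libraries as above, and again without high-dose replicate 2. CYP1A1 had 85.03, 90.5 and 94.4 CPM in the medium-dose libraries and did not differ by more than its error from the high dose, with a log2 difference (high minus medium) of 0.13 ± 0.20 (adjusted p = 0.805). For CYP1B1 and TIPARP the difference was −0.20 ± 0.14 (adjusted p = 0.633) and 0.08 ± 0.08 (adjusted p = 0.717), and for UGT1A6 it was 0.15 ± 0.12 (adjusted p = 0.652). ALDH3A1 was higher at the high dose by 0.54 ± 0.07 (adjusted p = 0.00265), and for NQO1 a difference of like size, 0.55 ± 0.15 (adjusted p = 0.157), missed the threshold. Without replicate 2 the values were 0.49 (adjusted p = 9.25e-05) for ALDH3A1 and 0.30 (adjusted p = 0.013) for NQO1. ALDH1A3 had a difference of −0.44 ± 0.09 (adjusted p = 0.0521), and −0.48 (adjusted p = 0.0023) without replicate 2, so its call depended on that library. Several ATF4 genes were higher at the high dose than at the medium dose. CHAC1 had 4.09, 3.36 and 3.93 CPM and ASNS 63.7, 63.2 and 63.6 CPM at the medium dose, and the differences were 2.41 ± 0.13 (adjusted p = 9.59e-07) and 1.89 ± 0.13 (adjusted p = 1.11e-05). For DDIT4, PSAT1 and TRIB3 they were 1.85 ± 0.07 (adjusted p = 5.98e-08), 1.3 ± 0.08 (adjusted p = 5.4e-06) and 0.99 ± 0.07 (adjusted p = 2.42e-05). Both mitochondrial rRNAs were also higher at the high dose, MT-RNR1 by 3.25 ± 0.11 (adjusted p = 3.11e-08) and MT-RNR2 by 2.51 ± 0.12 (adjusted p = 3.91e-07). The mRNAs MT-ND4 and MT-CO1 were lower at the high dose, with differences of −1.15 ± 0.22 (adjusted p = 0.0292) and −0.90 ± 0.17 (adjusted p = 0.0256). Without replicate 2, MT-ND4 missed the threshold at −1.16 (adjusted p = 0.125), and the calls of MT-CO1, both rRNAs and the 5 ATF4 and serine synthesis genes above were kept.

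CXCL1 and CCL20 were higher at the high dose than at the medium dose, by 1.04 ± 0.15 (adjusted p = 0.00459) and 1.33 ± 0.24 (adjusted p = 0.0223), and for CXCL8 and CXCL6 the differences of 1.00 ± 0.24 (adjusted p = 0.101) and 0.69 ± 0.27 (adjusted p = 0.419) missed the threshold. Without replicate 2 the differences of CXCL1 and CCL20 were 0.84 (adjusted p = 1.72e-05) and 1.03 (adjusted p = 0.00361), CXCL8 passed the threshold at 0.58 (adjusted p = 0.00291), and CXCL6 did not pass it at 0.43 (adjusted p = 0.518). PIGR, the receptor that carries antibodies into the gut lumen, had 1.16, 0.879 and 1.01 CPM in vehicle and 1.44, 1.203 and 1.45 CPM at the high dose and was no DEG, but it was lower at the high dose than at the medium dose (2.89, 2.71 and 3.603 CPM) by a log2 difference of −1.15 ± 0.17 (adjusted p = 0.00574), and without replicate 2 the difference was −1.08 (adjusted p = 0.00379). Whether the classes differ from each other in this step was not tested.

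**Figure D5:**
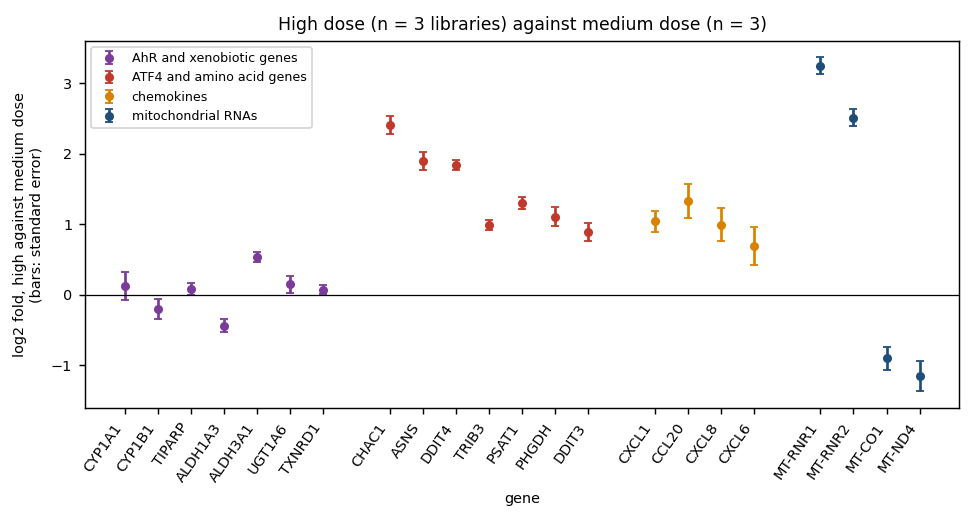
Log2 fold change of the high dose against the medium dose (n = 3 libraries each) with its standard error for 22 genes, coloured by class. CYP1A1, CYP1B1 and TIPARP lay near 0, whereas CHAC1, ASNS, MT-RNR1 and MT-RNR2 lay well above 1.

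Some named DEGs kept their call across the other analyses that were run (another test, normalization or filter, or a library left out). CYP1A1, CYP1B1, TIPARP, ALDH3A1, CHAC1, DDIT4, TRIB3, ASNS, PSAT1, PHGDH, CXCL1, CXCL8, CCL20, PI3, NOX1, MT-RNR1 and MT-RNR2 were DEGs in the same direction in each analysis that gave them a value. These analyses reuse the same libraries and are no independent check. Calls among the weaker changes were less stable. H2BC9 was a DEG in 11 of 15, DKK1 in 11 of 16, PMAIP1 in 11 of 16, NR0B2 in 11 of 16, DHRS9 in 12 of 16 and SLC4A11 in 12 of 16 of them, and leaving out single libraries other than high-dose replicate 2 was among the changes that ended these calls.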

How the data were processed

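Total RNA of HT29 cells from 4 groups of 3 libraries (vehicle and the ACD extract at 20, 100 and 500 µg/mL) was sequenced by the authors from directional mRNA libraries on an MGI instrument. The deposited table holds expected counts per gene and library, which RSEM estimates and which need not be whole; they are not normalized and were rounded here. The submitters' processing notes name FastQC 0.11.9, Trim Galore 0.6.5, STAR 2.7.3a, RSEM 1.3.3 and the genome build GRCh38 (hg38), whereas the study's methods give other versions of Trim Galore and STAR and write the build also as hg19. The strand setting of the counting is not given in the sources used here, so genes that overlap on opposite strands are uncertain. Reads shared by near-identical genes were divided by RSEM. The table holds no comparisons by the authors.

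Gene IDs were named by GENCODE 44 (98.8% of those tested). Genes were filtered by expression (filterByExpr), and edgeR 4.0.16 (R 4.3.3) with TMM scaling and robust quasi-likelihood tests was fitted to all 12 libraries, and again without high-dose replicate 2 on the same 15374 genes. P-values were adjusted by Benjamini-Hochberg over all genes tested. DEGs had to change by more than 1.5-fold at an adjusted p under 0.05. Levels are CPM on TMM-scaled library sizes, and per-library log2 values had a prior count of 2. The common biological coefficient of variation was 11.2%, which with 3 libraries a group gave a median standard error of 0.13. The low-dose libraries entered to estimate the spread, and their means are given for some noncoding RNAs. Alternatives were run with DESeq2 1.42.0, limma 3.58.1 and mgcv 1.9.3. The edgeR test of the high dose against vehicle was checked on simulated data, with and without high-dose replicate 2. The simulated libraries of a group shared their means and spread, so none stood apart as high-dose replicate 2 does, and the check does not cover that case. The alternatives and the comparison with the medium dose were not checked by simulation. Counting intervals and floors cover counting error only.

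The function lists and the genes named were chosen with earlier results of these data known. The genes named were the 12 largest changes each way that held, had a mean of at least 1 CPM over the 6 libraries and did not overlap between groups, up to 3 genes per list with the smallest p that held, fixed reference genes of each list, and the gene of each list with the smallest p among those called in 1 fit only. Other genes, among them further list members that held, were named after their values were seen. Promoters are the 250 bases before the gene start in RefSeq (GRCh38.p14), searched on both strands for GCGTG, TGACNNNGC, TGATGNAA and the kB consensus. Some named genes are not reported here.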

Additional observations from a re-analysis of the deposited data

How the results depend on the processing

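The counts of DEGs, 193 upregulated and 258 downregulated with all 12 libraries in the fit, depended most on how the spread was estimated. With the vehicle and high-dose libraries alone they were 100 and 69 in edgeR and 167 and 165 in DESeq2. Weights per library in limma voom gave 446 and 772, and no minimum fold change gave 433 and 454. Leaving out 1 library at a time gave between 159 and 299 upregulated and between 154 and 458 downregulated genes. The highest of these counts came without high-dose replicate 2 and the lowest without vehicle replicate 2 (159 and 154), and without vehicle replicate 3 or high-dose replicate 3 the counts were 170 and 179. Low counts in edgeR on 6 libraries went with 1841 genes at an unadjusted p under 0.05. Of the 407 genes that held, 167 were still DEGs there, 303 in DESeq2 on the same 6 libraries, 398 in limma voom and between 277 and 308 when 1 library was left out other than high-dose replicate 2. DESeq2 on all libraries, other size factors, filters, library sizes without mitochondrial genes and an offset for transcript length and GC content kept the counts within 1.5 times. Library sizes without mitochondrial genes left no value for those genes. Of 235 named genes, no DEG call turned to the opposite direction, 24 had a log2 fold change of the other sign without high-dose replicate 2 (none of them a DEG in either fit), and 44 lost their call in edgeR on 6 libraries. With a replicate block the counts were 173 and 206. Samples with the same replicate number did not deviate together (correlations of −0.26, −0.20 and 0.14 for replicates 1 to 3), so the numbers were not taken as pairs. Depth limited genes under 1 CPM, such as CYP1A1 in vehicle, whose values rest on 2 to 13 counts.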

Other observations

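Some genes outside the function lists also changed in both fits, and those named here were chosen after their values were seen. ULBP1, a ligand of the natural killer cell receptor NKG2D, had 0.275, 0.636 and 0.439 CPM in vehicle and 3.33, 2.19 and 3.07 CPM at the high dose, a log2 fold change of 2.60 ± 0.31 (adjusted p = 0.000346), and ULBP2, its relative, rose by 0.65. IL17C, an epithelial cytokine, had 0.05504, 0.0606 and 0.0879 CPM in vehicle and 1.08, 0.496 and 0.953 CPM at the high dose, where the vehicle values rest on very few counts and the log2 fold change of 3.60 ± 0.44 (adjusted p = 0.000383) is imprecise. IL4I1, a secreted amino acid oxidase that breaks down phenylalanine and tryptophan, rose from 0.1101, 0.212 and 0.264 to 1.62, 0.991 and 1.11 CPM, a log2 fold change of 2.60 ± 0.41 (adjusted p = 0.00247). TLR6, a receptor for bacterial lipopeptides, rose by 1.39, and PTGS2, the inducible cyclooxygenase, by 0.63. All high-dose libraries were above all vehicle libraries for ULBP1, IL17C and IL4I1, at low levels throughout.

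Metabolic genes outside the lists that rose in both fits included ASS1, the urea cycle enzyme that joins citrulline and aspartate, with 15.3, 12.8 and 14.2 CPM in vehicle and 28.4, 35.96 and 29.6 CPM at the high dose. Its log2 fold change was 1.15 ± 0.12 (adjusted p = 0.000162). NAMPT, the rate-limiting enzyme of NAD salvage, rose by 0.89, SLC22A3, an organic cation transporter, by 1.40, and GPAT3, an enzyme of triglyceride synthesis, by 1.12. Among the genes that fell were CD24, a surface glycoprotein of epithelial progenitors, from 1096, 1032 and 1069 to 641, 750.5 and 644 CPM, and CHST3, a chondroitin sulfotransferase, from 19.9, 21.4 and 19.7 to 8.47, 5.805 and 10.3 CPM. Their log2 fold changes were −0.65 ± 0.08 (adjusted p = 0.000483) and −1.28 ± 0.15 (adjusted p = 0.000304). GABRP, a subunit of the GABA receptor found in epithelia, was downregulated at −1.06, CD200, an inhibitory ligand of myeloid cells, at −1.33, and SOSTDC1, a secreted inhibitor of Wnt and BMP signals, at −0.67.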
